A study of Mus musculus with 10 samples.

Results

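Processed pseudogenes are copies of messenger RNAs that were reverse transcribed and inserted into the genome, so they usually lack introns and lie away from the gene they derive from, which is called the parent gene. The genes of this class were chosen by the biotype given in the deposited RIP-seq matrix, processed_pseudogene, which holds for 203 of its 15899 genes (1.28%). RNA immunoprecipitation followed by sequencing (RIP-seq) measures the RNA that is pulled down with a protein, here MEX3A, an RNA-binding protein of the KH domain family. The FLAG libraries come from neurospheres of adult mice homozygous for a FLAG-tagged Mex3a allele (Mex3aFLAG/FLAG), in which the endogenous protein carries a FLAG peptide at its C terminus. The WT libraries come from neurospheres of the same background without the tag, pulled down with the same anti-FLAG antibody, and give the nonspecific background. All mice were 10 weeks old according to the labels, and all cultures derived from the subependymal zone and grew as floating spheres with EGF and FGF. Both cultures were used crosslinked with formaldehyde (2 FLAG and 2 WT libraries) and native, without crosslinking (3 FLAG and 3 WT libraries).

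Because they resemble the mRNA of their parent, processed pseudogenes are difficult to measure with short reads. A read of 75 nt from a highly similar stretch can belong to the pseudogene or to the parent, and a pseudogene inside an intron shares its position with the unspliced RNA of the gene that hosts it. Most are regarded as silent, although some are transcribed from a neighbouring promoter or as part of a host transcript. The RNA was primed with random hexamers and not selected for poly(A) tails, so unspliced RNA could enter the libraries.

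Input RNA was not analysed here, so RNA held by MEX3A and RNA that was more abundant in 1 of the cultures cannot be told apart. Values are the deposited log2 normalised levels, and how many reads stand behind each library is not given in the sources used here. In FLAG native replicate 1, 329 genes were tied at the lowest value of the library, and in FLAG native replicate 3, 178 genes, whereas no other library had more than 3. The neural stem and progenitor markers Sox2, Nes, Egfr, Fabp7, Slc1a3, Vim, Olig2 and Sox9 were all in the matrix. Of the markers of other cell types, 2 of 4 neuronal, 1 of 4 oligodendrocyte, 3 of 4 microglial, 2 of 3 endothelial genes and the ependymal gene Foxj1 were in the matrix, the highest with a mean log2 level of 4.18. Their part in the values of the pseudogenes was not tested.

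Where the 203 pseudogenes lie in the genome set them apart from processed pseudogenes in general. In the GENCODE M21 annotation of GRCm38, in which all 203 were found and 201 had the same start and end, 84 lay in an intron of a protein-coding gene on the opposite strand and 56 in an intron of a coding gene on the same strand. A further 17 overlapped an exon of another gene, 10 lay elsewhere within another gene's body and 36 lay outside every annotated gene. The annotation holds 9940 processed pseudogenes, of which 206 (2.07%) are in the matrix under any biotype. The share was 7.65% of the 745 in introns on the same strand and 6.69% of the 1241 in introns on the opposite strand. It was 0.539% of the 7052 outside annotated genes.

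The hosts of the intronic pseudogenes were long and highly represented genes. The 132 host genes had a median body of 136 kb, against 28.6 kb for the 12276 protein-coding genes of the matrix found in the annotation. Per kb of exon, the median log2 level was 4.29 for the hosts and 1.21 for the coding genes. Of the intronic pseudogenes of the annotation, 16.8% were in the matrix where the host was in the highest of 4 equal groups of coding genes by level per kb (125 of 746), and 0.733% where it was in the lowest (2 of 273). None of the 418 intronic pseudogenes whose host is not in the matrix were in it.

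**Figure D1:**
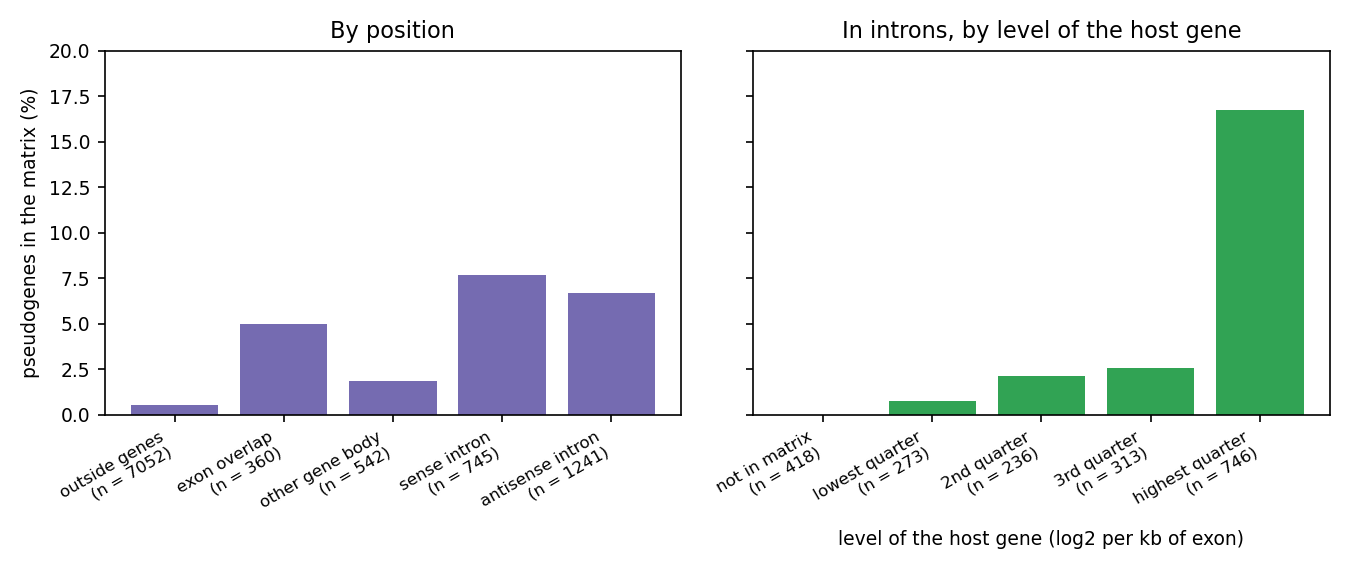
Share of the processed pseudogenes of GENCODE M21 that are in the RIP-seq matrix, in percent, by position in the genome (left) and, for those in introns of coding genes, by the level of the host gene per kb of exon (right), with the number of annotated pseudogenes under each bar. The bar for the highest group of host genes reaches 16.8%, and that for pseudogenes outside genes 0.539%.

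Similarity to the parent also depended on position. A coding parent with at least 80% identity over at least 50% of the pseudogene was found for 153 of the 203, of which 149 had a parent in the matrix. The exons of each pseudogene were cut into all windows of 75 nt, and a window was counted as single if it occurred at 1 place in the genome and in no spliced transcript of another gene. For the pseudogenes outside genes the median share of single windows was 53.8%, and 17 of 36 had fewer than 50% single windows. For those in introns the median was 100%, and 4 of 140 had fewer than 50%. The closest coding transcript was a median of 98.9% identical outside genes and 88.2% in introns. How the authors assigned reads that fit several places, and whether strand was used in counting, is not given in the sources used here, so levels of pseudogenes with few single windows, with overlapping exons or within introns are uncertain.

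The stretches printed here show how near these copies are to their parents, since that decides whether a read can be told apart. Each is the first run of 120 bases of the parent's coding sequence that aligns without a gap, read from GRCm38 in the direction of the mRNA, with bases that differ from the parent in capitals. Gm13456 and Gm6548, both outside genes, are copies of Eef1a1, which encodes the translation elongation factor that brings aminoacyl-tRNA to the ribosome. The stretch of Gm13456 lies at chr2:40555949-40556068 on the plus strand and that of Gm6548 at chr17:78851837-78851956 on the minus strand, aligned to coding bases 223 to 342 of Eef1a1, with 1 and 4 differing bases.
Eef1a1: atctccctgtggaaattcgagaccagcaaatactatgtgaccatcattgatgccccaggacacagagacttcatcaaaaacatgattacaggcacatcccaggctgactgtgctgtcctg
Gm13456: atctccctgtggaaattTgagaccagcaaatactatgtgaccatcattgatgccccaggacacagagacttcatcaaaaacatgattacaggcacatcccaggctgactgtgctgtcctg
Gm6548: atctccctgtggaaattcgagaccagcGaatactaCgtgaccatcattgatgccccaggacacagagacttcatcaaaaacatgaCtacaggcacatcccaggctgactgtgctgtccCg

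Gm7887, at chr6:48524910-48525029 on the minus strand, has 0 differing bases over coding bases 95 to 214 of Pcnp, which encodes a small nuclear protein. Gm9794, at chr6:66875624-66875743 on the minus strand, has 0 over coding bases 1 to 120 of Rpl23, a protein of the large ribosomal subunit. Gm15920, at chr5:130188395-130188514 on the plus strand within an intron of Rabgef1, has 1 over coding bases 49 to 168 of Ndufa12, a subunit of respiratory complex I.
Pcnp: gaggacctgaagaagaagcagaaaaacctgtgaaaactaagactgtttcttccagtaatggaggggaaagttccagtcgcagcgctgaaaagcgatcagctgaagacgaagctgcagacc
Gm7887: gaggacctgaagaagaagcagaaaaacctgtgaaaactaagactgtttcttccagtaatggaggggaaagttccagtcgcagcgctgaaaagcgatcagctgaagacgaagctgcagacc
Rpl23: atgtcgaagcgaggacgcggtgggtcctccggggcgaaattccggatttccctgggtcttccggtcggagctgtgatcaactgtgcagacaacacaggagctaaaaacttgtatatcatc
Gm9794: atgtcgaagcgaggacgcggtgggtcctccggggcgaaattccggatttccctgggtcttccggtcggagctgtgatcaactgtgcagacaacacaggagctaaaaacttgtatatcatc
Ndufa12: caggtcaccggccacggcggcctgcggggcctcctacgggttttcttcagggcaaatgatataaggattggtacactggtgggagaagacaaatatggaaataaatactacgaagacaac
Gm15920: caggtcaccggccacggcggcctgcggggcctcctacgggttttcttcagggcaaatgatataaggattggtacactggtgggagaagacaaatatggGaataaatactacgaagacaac

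By contrast, 2 intronic copies are well diverged. Rps2-ps9 lies at chr17:27784484-27784603 on the plus strand, within an intron of D17Wsu92e on the opposite strand, and differs at 13 of 120 bases from coding bases 115 to 234 of Rps2, a protein of the small ribosomal subunit. Gm17068 lies at chr19:16277865-16277984 on the plus strand, within an intron of Gnaq, and differs at 9 bases from coding bases 145 to 264 of Gapdh, the glycolytic dehydrogenase.
Rps2: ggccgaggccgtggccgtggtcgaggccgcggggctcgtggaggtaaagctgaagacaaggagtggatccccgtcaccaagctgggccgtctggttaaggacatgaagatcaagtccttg
Rps2-ps9: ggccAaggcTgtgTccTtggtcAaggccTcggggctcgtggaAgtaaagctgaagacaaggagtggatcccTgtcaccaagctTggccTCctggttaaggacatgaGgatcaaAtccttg
Gapdh: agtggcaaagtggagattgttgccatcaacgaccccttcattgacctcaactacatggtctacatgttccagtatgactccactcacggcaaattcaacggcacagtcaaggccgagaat
Gm17068: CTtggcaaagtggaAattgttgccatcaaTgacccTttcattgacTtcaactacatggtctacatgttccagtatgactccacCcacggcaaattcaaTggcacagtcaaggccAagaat

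Processed pseudogenes had low levels. The mean log2 level over the 10 libraries had a median of 0.18 over the 203 and ran from -0.92 to 3.52, while the median over all genes was 2.84. Per kb of exon the median log2 level was 0.53, against 1.21 for coding genes. Among those with the highest mean log2 levels were Gm15425 (3.52), Gm13456 (3.21), Gm16147 (2.98) and H2afy3 (2.67). Per kb of exon their log2 levels were 2.08, 2.76, 4.40 and 2.52.

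Of these, all but Gm13456 lay within the body of another gene. Gm15425, closest to Trip12, a ubiquitin ligase, lies in an intron of Pde10a, a cyclic nucleotide phosphodiesterase, on the opposite strand. Gm16147 lies in an intron of Zeb1, a transcriptional repressor of the epithelial state, on the opposite strand. H2afy3, closest to H2afy2, which encodes a macroH2A histone, overlaps an exon of the long noncoding RNA gene Pvt1. Over all libraries FLAG over WT gave a log2 fold change of -0.60 (SE 0.23, adjusted p = 0.196, limma with Benjamini-Hochberg adjustment) for Gm15425 and -0.31 (SE 0.15) for Pde10a. It gave -0.66 (SE 0.33, adjusted p = 0.270) for Gm16147 and -0.51 (SE 0.21) for Zeb1. It gave -0.42 (SE 0.30, adjusted p = 0.397) for H2afy3 and -0.26 (SE 0.25) for Pvt1. Pvt1 had opposite signs in the protocols, with 0.34 (SE 0.18) crosslinked and -0.66 (SE 0.28) native, where H2afy3 had -0.11 and -0.63. Under alternative fits over all libraries H2afy3 ran from -0.65 to 0.07.

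FLAG was compared with WT to ask which RNAs were pulled down with MEX3A beyond the background, and a gene was called at an adjusted p under 0.05 and a log2 fold change above 0.58 or below -0.58. With the 10 libraries fitted together and the protocol as a term, 1 processed pseudogene was called higher in FLAG (0.493%) and 0 lower, where 0.264% of all genes were called higher and 0.233% lower. At an unadjusted p under 0.05 and the same fold change, 23 of 203 were higher (11.3%) and 13 lower (6.4%), where 7.24% and 5.28% of all genes were. For 7 pseudogenes (3.45%) the FLAG libraries of both protocols were all higher than the WT libraries beside them, as for 4.84% of all genes, and for 2 (0.985%) all were lower, as for 4.47%. In pulled-down RNA from a mixed culture, fewer cells of a type and less RNA per cell cannot be told apart.

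Within the protocols no processed pseudogene was called. In the crosslinked libraries 0 were called by limma with Benjamini-Hochberg adjustment, as were 0 of all 15899 genes. On simulated data this fit recovered 0% of the genes changed by 1.5, and the native fit 39%. A count of 0 thus cannot show an absence of enrichment. The paper used another test, DESeq2 on read counts, and reported genes enriched in both protocols. In the crosslinked libraries 11 pseudogenes were higher at an unadjusted p under 0.05 and the same fold change, where 2.78% of all genes were. There 4 were lower, where 0.987% were. In the native libraries 0 were called, where 0.107% of all genes were called lower. At an unadjusted p under 0.05 and the same fold change 13 were higher, where 7.77% of all genes were. There 11 were lower, where 7.06% were. The difference of the FLAG effect between the protocols gave 0 called pseudogenes and 0 called of all 15899 genes by limma, and at an unadjusted p under 0.05 it was above 0 for 1 pseudogene (0.493%) and below 0 for 1 (0.493%), where 0.233% and 0.182% of all genes were. These counts turned on single libraries. Without FLAG native replicate 2, 13 pseudogenes were called higher (6.4%) and 20 lower (9.85%) in the native libraries, where 9.12% and 10.8% of all genes were. Over all libraries 9 were then called higher (4.43%) and 0 lower, where 3.25% and 1.17% of all genes were.

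The pseudogene called higher was Gm7887, a copy of Pcnp on chromosome 6 that overlaps an exon of Zfp862-ps. Its log2 levels were -2.20 and -1.88 in WT crosslinked and -0.47 and 0.07 in FLAG crosslinked. They were -1.16, -1.78 and -0.90 in WT native and 1.07, 0.53 and 1.99 in FLAG native. All 5 FLAG libraries lay above all 5 WT libraries. The log2 fold change over all libraries was 2.22 (SE 0.37, adjusted p = 0.0366, limma with Benjamini-Hochberg adjustment), with 1.84 crosslinked (adjusted p = 0.502) and 2.48 native (adjusted p = 0.179).

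The parent of Gm7887 differed less between FLAG and WT. Pcnp had log2 levels from 3.63 to 4.24 over the 10 libraries, with a log2 fold change of 0.14 (SE 0.11, adjusted p = 0.455). The difference between Gm7887 and Pcnp was 2.08 higher in FLAG on the log2 scale, which is a description with no test, since the pair was chosen for the call of Gm7887. The overlapping gene Zfp862-ps had a log2 fold change of 0.60 (SE 0.18, adjusted p = 0.130). Only 19.2% of the windows of Gm7887 are single, and its call was lost under 13 of 18 alternatives, with log2 fold changes from 0.98 to 2.37 and adjusted p-values from 7.12e-05 to 0.148. It was kept without FLAG native replicate 2 and without WT crosslinked replicate 2, and lost without each of the other 8 libraries. With crosslinked and native libraries of the same genotype and replicate number as a random block, the log2 fold change was 2.26 (SE 0.43, adjusted p = 0.0908), so the call rests on taking the 10 libraries as independent.

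**Figure D2:**
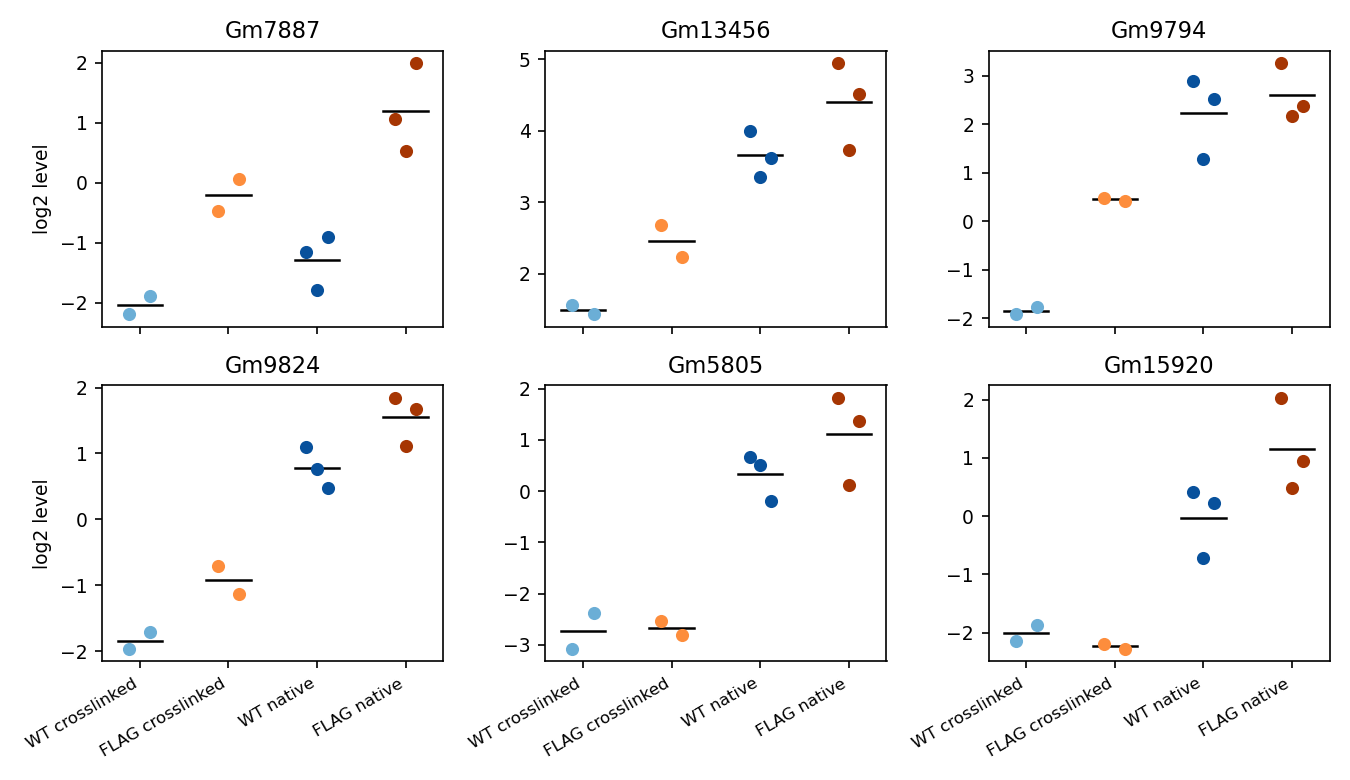
Log2 level of the 6 processed pseudogenes called in any comparison, for each library (points) and group mean (lines), in WT crosslinked (2 libraries), FLAG crosslinked (2), WT native (3) and FLAG native (3). Gm7887 is higher in all FLAG libraries, while the other 5 are higher in all native than in all crosslinked libraries.

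The other pseudogenes with all FLAG libraries above WT in both protocols and the largest fold changes were Ptges3-ps, Tcea1-ps1, Gm13910 and AC156016.4. Ptges3-ps is identical over its whole length to Ptges3, which encodes the HSP90 co-chaperone p23, and has 0% single windows. Its log2 levels were -1.71 and -1.80 in WT crosslinked, -0.34 and -0.38 in FLAG crosslinked, 0.46, 0.62 and -1.16 in WT native and 1.19, 0.67 and 2.20 in FLAG native. The FLAG libraries lay above the WT libraries of the same protocol, narrowly so in the native libraries. The log2 fold change was 1.39 (SE 0.41, adjusted p = 0.127), and that of Ptges3 was 0.35 (SE 0.19).

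Tcea1-ps1, a copy of Tcea1, which encodes the transcription elongation factor TFIIS, had log2 levels of -1.16 and -0.86 in WT crosslinked and 0.20 and -0.40 in FLAG crosslinked. It had 0.39, 0.03 and -0.27 in WT native and 2.15, 0.87 and 1.76 in FLAG native. The log2 fold change was 1.29 (SE 0.31, adjusted p = 0.0903) for Tcea1-ps1 and -0.03 (SE 0.13) for Tcea1. Gm13910 is a copy of Hadhb, which encodes a subunit of the mitochondrial trifunctional protein of fatty acid oxidation, and had a log2 fold change of 1.203 (SE 0.35, adjusted p = 0.124). Hadhb had -0.20 (SE 0.11).

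AC156016.4, which overlaps an exon of Mapk1ip1l, had a log2 fold change of 1.11 (SE 0.31, adjusted p = 0.118), and Mapk1ip1l had 0.32 (SE 0.17). In the opposite direction, both pseudogenes with all FLAG libraries below WT lay in introns. Gm19045 had log2 levels of 1.03 and 0.56 in WT crosslinked, 0.39 and 0.30 in FLAG crosslinked, 0.56, 0.58 and 0.71 in WT native and -0.38, 0.22 and -0.18 in FLAG native. Its log2 fold change was -0.62 (SE 0.22, adjusted p = 0.173), and that of its host 2700049A03Rik was -0.52 (SE 0.18). Wdr46-ps had -0.41 (SE 0.16, adjusted p = 0.202), and its host Akap9, which encodes a scaffold protein of the centrosome and Golgi, had -0.15 (SE 0.08).

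Position separated the direction of the values. Over all libraries, 30 of the 36 pseudogenes outside genes (83.3%) had a log2 fold change above 0, with a median of 0.67, against 25 of the 140 in introns (17.9%), with a median of -0.31. Among all genes 46.8% were above 0, with a median of -0.03. Both intron classes were alike in this, with medians of -0.30 on the same strand and -0.40 on the opposite strand. The 17 that overlap an exon had a median of 0.43, with 13 above 0, and the 10 elsewhere in a gene body had -0.05.

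The same order appeared in each protocol. The protocols share no library, but crosslinked and native libraries of the same genotype and number deviated together, so they are not independent repeats. The crosslinked medians of the log2 fold change were 0.36 outside genes and -0.18 in introns, and the native medians were 0.78 and -0.38. Without FLAG native replicates 1 and 3, the libraries with many tied values, the native medians were 0.10 outside genes and -0.02 in introns, and those over all libraries were 0.34 and -0.12. This leaves 1 FLAG native library, replicate 2, which is assumed to vary like the other groups. The tied lowest value was held in FLAG native replicate 1 by 27 of the intronic pseudogenes and 2 of those outside genes, and in FLAG native replicate 3 by 18 and 1. No test was made of the position classes.

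**Figure D3:**
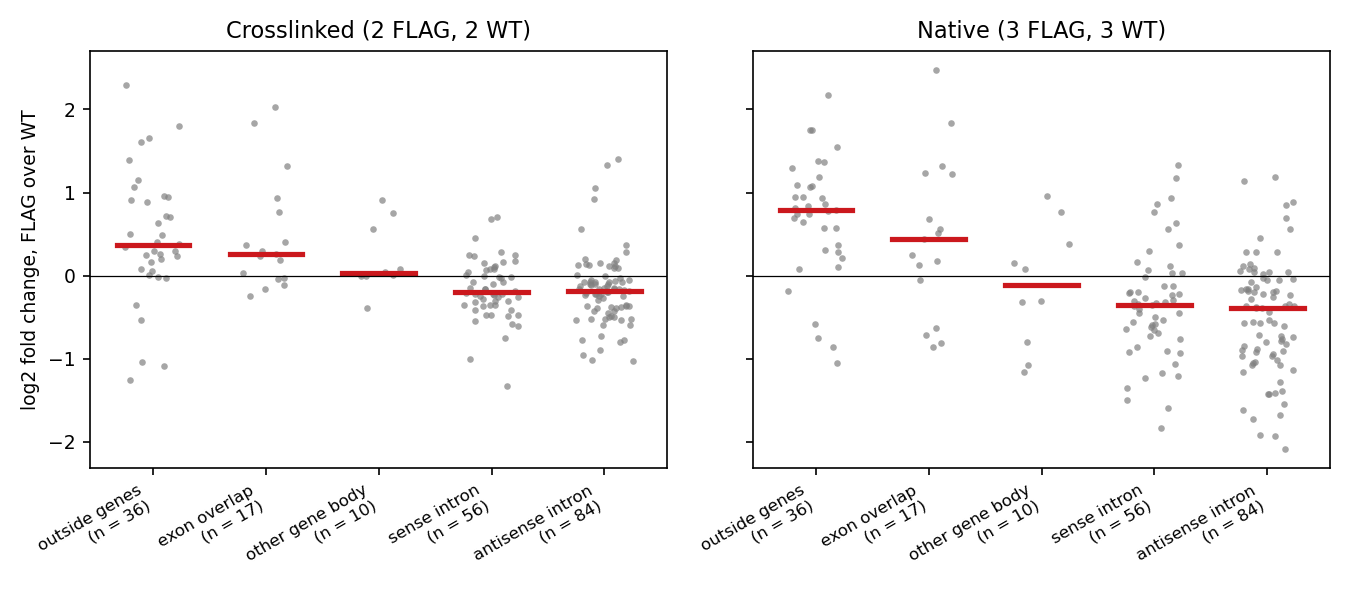
Log2 fold change of FLAG over WT for each of the 203 processed pseudogenes (points) by position in the genome, with class medians (red lines), with crosslinked libraries on the left and native libraries on the right. The median is above 0 outside genes (0.36 and 0.78) and below 0 in both intron classes.

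The levels in single libraries varied within the groups too. Outside genes, the median log2 level was -0.39 and -0.67 in WT crosslinked, 0.24 and -0.23 in FLAG crosslinked, 0.49, 0.25 and 0.35 in WT native and 1.57, 0.55 and 1.39 in FLAG native. In introns it was 0.24 and 0.18 in WT crosslinked, 0.14 and 0.14 in FLAG crosslinked, 0.79, 0.08 and 0.81 in WT native and 0.11, 0.52 and 0.04 in FLAG native. Outside genes every FLAG median lay above every WT median of the same protocol. In introns the native groups overlapped, with WT native replicate 2 as low as FLAG native replicates 1 and 3.

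**Figure D4:**
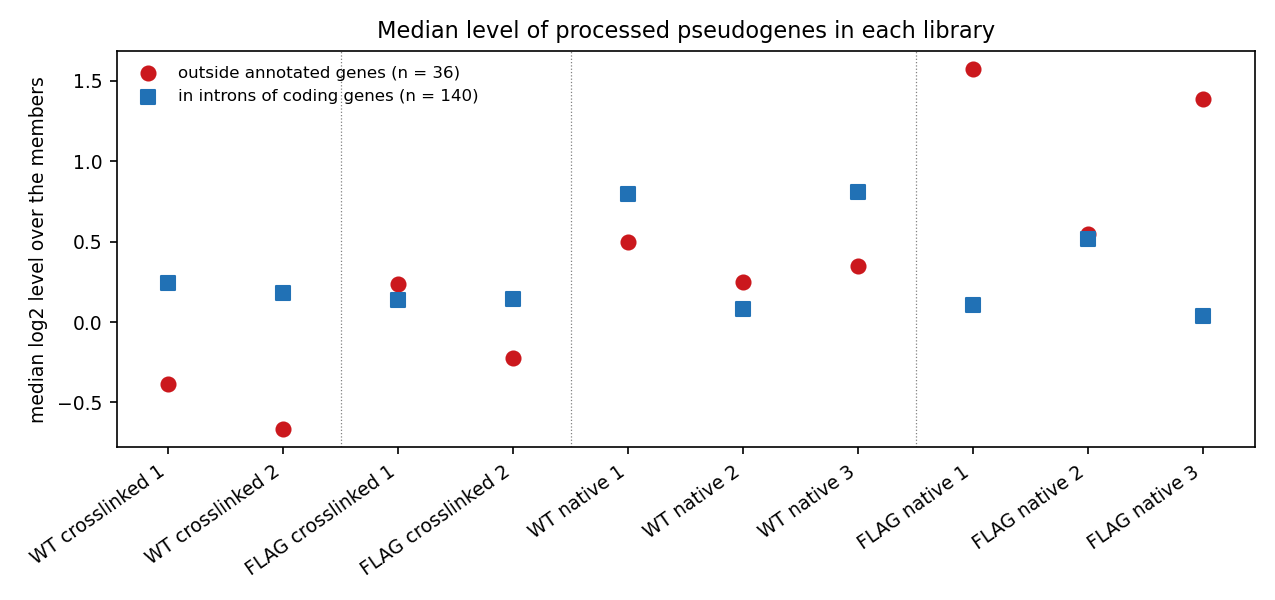
Median log2 level in each of the 10 libraries over the 36 processed pseudogenes outside annotated genes (circles) and the 140 in introns of coding genes (squares). The circles lie between -0.67 and 1.57 and are highest in FLAG native replicates 1 and 3, while the squares lie between 0.04 and 0.81.

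The share of single windows went with the same division. The 23 pseudogenes with fewer than 50% single windows, 17 of them outside genes, had a median log2 fold change of 0.81 over all libraries. The 39 with 50% to 90% had -0.04, and the 141 with at least 90% had -0.30. Within the pseudogenes outside genes the median was 0.78 for the 28 with fewer than 90% single windows and 0.46 for the 8 with at least 90%. Within introns it was -0.21 for 27 and -0.40 for 113. The part of read assignment in these values was not tested.

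Other classes of genes gave a scale for these medians. Over all libraries the median log2 fold change was 0.01 for the 12288 protein-coding genes and -0.43 for the 138 genes annotated as sense_intronic, noncoding transcripts within introns. It was -0.27 for the 32 transcribed processed pseudogenes and -0.24 for the 26 unprocessed pseudogenes, which arise by duplication of the gene and keep its introns.

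Intronic pseudogenes were set beside their hosts and their parents. Over the 140 intronic pseudogenes and their hosts (132 hosts), the log2 fold changes over all libraries correlated with a Pearson r of 0.45 and a Spearman rho of 0.45. Over the 94 intronic pseudogenes with a parent in the matrix (78 parents), the values were 0.10 and 0.02. Host correlations were 0.33 (Pearson) on the same strand and 0.50 on the opposite strand. All points come from the same 10 libraries, several share a host or a parent, and a pseudogene and its host share a stretch of genome, so these are descriptions across genes. The median log2 fold change of the hosts was -0.11, with 28.8% above 0, and that of all 125 parent genes was 0.23, with 64.8% above 0.

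**Figure D5:**
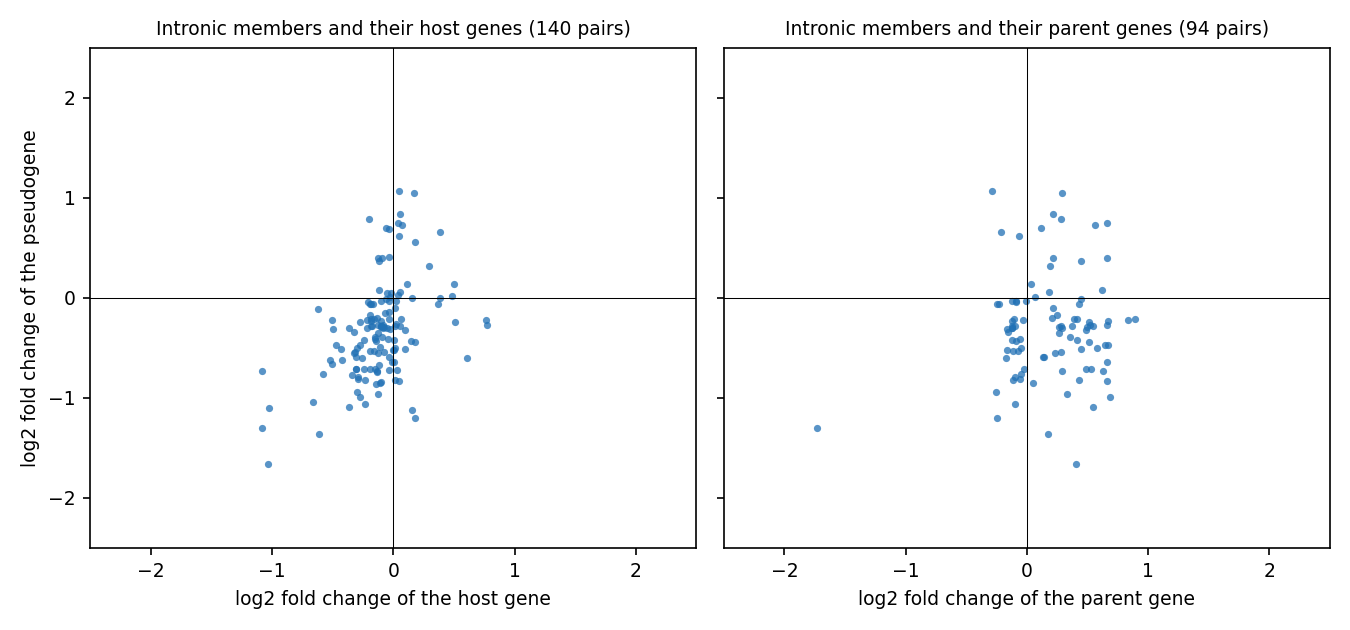
Log2 fold change of FLAG over WT over all libraries for intronic processed pseudogenes, against that of the host gene (left, 140 pairs) and of the parent gene (right, 94 pairs). The points spread along a rising band in the host panel (Pearson r of 0.45) and show little order in the parent panel (0.10).

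For pseudogenes outside genes, most pairs of pseudogene and parent had the same sign. Since 83.3% of these pseudogenes and 64.5% of their parents lay above 0, many unrelated pairs would share a sign too. The 31 parents had a median log2 fold change of 0.26 over all libraries, against 0.67 for the pseudogenes, and 25 of the 34 pairs had the same sign. Pearson r was 0.35 over these pairs. In the crosslinked libraries it was 0.15, with 21 of 34 of the same sign, and in the native libraries 0.25, with 25. Over the 22 pairs at any position with fewer than 50% single windows, 14 had the same sign over all libraries, with a Pearson r of -0.15. By the name before "-ps", 13 pseudogenes had a parent in the matrix, and the pseudogene exceeded its parent by a median of 0.17 on the log2 scale of fold changes. Over the 149 pairs by sequence, most of them with intronic pseudogenes, the direction turned and the median was -0.19. By name, the largest differences were 1.32 for Tcea1-ps1, 1.04 for Ptges3-ps, 0.88 for Sms-ps, -0.59 for Fgfr3-ps and 0.55 for Hspd1-ps3.

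Among the pairs with the highest parent levels, Sms-ps and Tpt1-ps3 are identical to their parents over their full length and have 0% single windows. Sms encodes spermine synthase, and had a log2 fold change of -0.33 (SE 0.12), while Sms-ps had 0.54 (SE 0.29). Tpt1 encodes a small abundant protein known as TCTP, and had 0.88 (SE 0.28), while Tpt1-ps3 had 1.17 (SE 0.50). Hspd1 encodes the mitochondrial chaperonin HSP60 and had 0.62 (SE 0.22), while Hspd1-ps3 had 1.17 (SE 0.35). Rps2 had 0.67 (SE 0.71) and Rps2-ps9 0.40 (SE 0.45) over all libraries, and both had opposite signs in the protocols. Rps2 had -0.80 (SE 0.48) crosslinked and 1.64 (SE 0.83) native, and Rps2-ps9 had -0.27 (SE 0.34) and 0.85 (SE 0.65), with an adjusted p of 0.97 by limma for the difference between protocols of each gene. None of these values passed the adjusted threshold.

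Fgfr3-ps, a copy of the fibroblast growth factor receptor gene Fgfr3 that overlaps an exon of Nvl, is 81.1% identical to its parent and has 100% single windows. Its log2 levels ran from 0.90 to 1.52 over the 10 libraries, and its log2 fold change was 0.04 (SE 0.19). Fgfr3 had 0.64 (SE 0.34) and Nvl -0.05 (SE 0.10). The WT values of Fgfr3 ranged from 1.69 to 3.66, whereas those of the pseudogene stayed within 0.97 to 1.26.

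Parents were grouped into families to see which kinds of mRNA the copies derive from. Ribosomal protein genes were the parents of 23 pseudogenes, 17 of them in introns, with a median log2 fold change of -0.07 and 10 of 23 above 0. Glycolytic enzymes, Gapdh and Ldha, were the parents of 8, all in introns, with a median of -0.29 and 0 of 8 above 0. Translation factors were the parents of 8, of which 4 lay outside genes, with a median of 0.22 and 4 above 0. HMG chromatin proteins (Hmgb1 and Hmgb3) were the parents of 4, all in introns, with a median of -0.24 and 0 above 0. Chaperones and cyclophilins had 6 with a median of -0.11, hnRNP proteins 4 with -0.54, cytoskeletal proteins 5 with -0.24 and respiratory chain subunits 4 with 0.19. The medians of 3 families differed in sign between the protocols. Those of the respiratory chain had -0.40 crosslinked, with 0 of 4 above 0, and 0.67 native, with 3 of 4. Those of the ribosomal proteins had 0.09, with 15 of 23 above 0, and -0.17, with 10 of 23, and those of the cytoskeleton had -0.07, with 2 of 5, and 0.09, with 3 of 5. No pseudogene of these families was called over all libraries.

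Native and crosslinked libraries of the same genotype were compared next. Between native and crosslinked WT libraries 3 processed pseudogenes were called higher in native (1.48%) and 0 lower, where 0.289% of all genes were called higher and 0.044% lower. Between the FLAG libraries 3 were called higher (1.48%) and 0 lower, where 0.396% and 0.044% of all genes were. Crosslinked and native libraries of the same genotype and replicate number deviated together, and with each such pair as a block 0 were called in either genotype, where 0.0189% of all genes were called higher in WT and 0.0252% in FLAG. The median log2 fold change of native over crosslinked was 1.06 outside genes and 0.34 in introns in WT, and 1.14 and 0.05 in FLAG, against -0.02 and -0.11 over all genes. Outside genes this differed with the share of single windows, with no test made. The 28 with fewer than 90% single windows had medians of 1.41 in WT and 1.59 in FLAG, and the 8 with at least 90% had -0.16 in WT, with 2 above 0, and 0.13 in FLAG, with 5 above 0. How the protocols differ in RNA recovery was not tested.

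Gm9794, the copy of Rpl23 outside genes, had log2 levels of -1.92 and -1.77 in WT crosslinked and 2.89, 1.28 and 2.52 in WT native. In FLAG it had 0.48 and 0.42 crosslinked and 3.26, 2.17 and 2.38 native. All native libraries lay above all crosslinked libraries, and the FLAG crosslinked libraries lay above the WT crosslinked libraries. The log2 fold change of native over crosslinked was 4.08 (SE 0.49, adjusted p = 0.0301, limma with Benjamini-Hochberg adjustment) in WT and 2.15 (SE 0.49, adjusted p = 0.0984) in FLAG. For Rpl23 it was 0.63 in WT and 1.53 in FLAG, and neither was called.

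Gm13456, the copy of Eef1a1, had log2 levels of 1.56 and 1.43 in WT crosslinked, 2.68 and 2.24 in FLAG crosslinked, 4.00, 3.35 and 3.62 in WT native and 4.94, 3.73 and 4.51 in FLAG native. Native over crosslinked it had 2.16 (SE 0.34, adjusted p = 0.0397) in WT and 1.93 (SE 0.34, adjusted p = 0.0520) in FLAG, with the same tool and adjustment. Eef1a1 had 1.15 and 1.67, not called. Gm6548, which shares the parent, had -0.19 (SE 0.55) in WT and 0.90 (SE 0.55) in FLAG, and 93.0% of its windows are single, against 63.6% for Gm13456.

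Gm9824 is a copy of Pebp1, which encodes a phosphatidylethanolamine-binding inhibitor of RAF kinase signalling, and lies within the body of the noncoding gene Gm30619. It was called in both genotypes, with 2.62 (SE 0.40, adjusted p = 0.0317) in WT and 2.47 (SE 0.40, adjusted p = 0.0481) in FLAG. The values of Gm30619 were equal to those of Gm9824, within 0.001, in 5 libraries and differed by at most 0.27 in the others, so the same reads may stand behind both. Pebp1 had 1.17 and 1.46, not called.

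Gm5805, a copy of the ribosomal protein gene Rps14 outside genes, had log2 levels from -3.08 to -2.39 in the 4 crosslinked libraries and from -0.19 to 1.82 in the 6 native libraries. It had 3.78 (SE 0.61, adjusted p = 0.0481) in FLAG and 3.06 (SE 0.61, adjusted p = 0.0883) in WT for native over crosslinked. Its parent Rps14 was itself called in WT, with 1.59 (SE 0.27, adjusted p = 0.0471), and had 1.47 (SE 0.27, adjusted p = 0.0541) in FLAG. Gm15920, the copy of Ndufa12 in an intron of Rabgef1, a Rab5 exchange factor gene, had levels from -2.28 to -1.87 in crosslinked and from -0.72 to 2.03 in native libraries. It had 3.39 (SE 0.58, adjusted p = 0.0495) in FLAG and 1.99 (SE 0.58, adjusted p = 0.309) in WT. Its host Rabgef1 had 0.00 in FLAG and 0.03 in WT, and Ndufa12 had 0.56 and 0.52. Each of these 6 calls between protocols was lost under 10 to 13 of 17 or 18 alternatives, the block among them, with adjusted p-values between 0.000483 and 0.473 and no change of sign. In WT the log2 fold changes ran from 2.18 to 4.55 for Gm9794, 1.83 to 2.31 for Gm13456 and 1.09 to 2.77 for Gm9824. In FLAG they ran from 1.365 to 2.69 for Gm9824, 1.49 to 4.27 for Gm5805 and 1.44 to 3.72 for Gm15920. When 1 library was left out, the calls in WT were kept without FLAG native replicate 2 or WT native replicate 2 or FLAG native replicate 1 and lost without any other, and those in FLAG were kept without FLAG native replicate 2 and lost without any other.

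Copies of ribosomal protein mRNAs were also set out by position for native over crosslinked, with no test between the positions. The 5 outside genes (Gm5805, Rpl31-ps8, Gm10288, Gm9794 and Gm19810) had log2 fold changes of native over crosslinked from 2.60 to 4.08 in WT and from 2.15 to 3.78 in FLAG. The 17 in introns had a median of 0.38 in WT, ranging from -0.33 to 2.75, and -0.04 in FLAG, ranging from -1.25 to 2.97. The parents of the 5 had a median of 1.59 in WT and 1.53 in FLAG, and the 14 parents of the 17 had 1.06 and 1.33. Of the 5, Rpl31-ps8, Gm10288 and Gm9794 have fewer than 50% single windows. Rpl31-ps8, which is identical to Rpl31 and has no single window, had -0.50 and -1.96 in WT crosslinked, 0.43 and -1.14 in FLAG crosslinked, 3.25, 0.80 and 2.24 in WT native and 2.56, 1.76 and 2.61 in FLAG native. All its native values lay above its crosslinked values.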

How the data were processed

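Neurosphere RNA pulled down with anti-FLAG was measured in 10 libraries (5 FLAG, 5 WT). The authors trimmed reads with Cutadapt and Trimmomatic, mapped them to GRCm38 with HISAT2, counted them with featureCounts and, according to the methods, normalised with DESeq2, while the processing notes list limma. The deposited matrix holds log2 values with nearly the same distribution in each library, as after quantile normalisation. The methods give a total read output for the libraries together, while the depth of each library and the multi-mapping and strand settings of the counting are not given in the sources used here. The methods name biological replicates.

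All 15899 genes were fitted in limma 3.58.1 (R 4.3.3; lmFit, eBayes with a trend) with Benjamini-Hochberg adjustment, and calls needed an adjusted p under 0.05 and a log2 fold change beyond 0.58, the study's thresholds. On simulated data with 200 of 15899 genes changed by 1.5, 0%, 39% and 76% were recovered in the crosslinked, native and combined comparisons, with 0, 6 and 12 false calls. The noise was drawn independently for each library, and the changed genes were drawn from all genes. Recovery with correlated libraries, or among genes as low as the pseudogenes, was not tested. Positions and exons came from GENCODE M21 on GRCm38, parents from blastn 2.17.0 of the exons against coding transcripts, and the 75 nt window is the read length. Python 3.11.15, pandas 2.3.3, biopython 1.88 and matplotlib 3.10.9 were used.

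The pseudogenes, families and lists were chosen with earlier results of these data known. Named are all called pseudogenes, the 5 largest changes in each direction with separated libraries in both protocols (2 qualified below), the 5 highest levels, and the 5 name-based pairs with the highest parent level and with the largest difference. Gm6548, Gm17068, Rpl31-ps8, Gm10288 and Gm19810 were chosen after their values were seen. Of the highest levels 1, and of the cell type markers 1, are not reported here. Alternatives were a pseudocount of 1, a mean of at least 10, quantile normalisation, array weights, a block for the replicate number, no trend, 1 fit of 4 groups and each library left out. The crossed block, the blocks within genotype (fixed between protocols, random through duplicateCorrelation for FLAG over WT) and leaving out FLAG native replicates 1 and 3 were added after the data were seen. Crosslinked and native libraries of the same genotype and number, numbered in the labels, correlated in their deviations from the group means in 4 of 4 pairs (r from 0.154 to 0.388). With 2 crosslinked libraries per genotype, each deviates as the mirror image of the other, so the pairs of a genotype are not separate observations. The fits with these blocks are given beside the calls, which come from fits without a block.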

Additional observations from a re-analysis of the deposited data

How the results depend on the processing

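The direction of the median log2 fold change outside genes and in introns was kept under each alternative that gave a median (a mean of at least 10 left too few pseudogenes for one), but the counts of called pseudogenes were not stable, and the causes were not tested. Array weights gave 11 higher and 28 lower in FLAG over WT native (5.42% and 13.8%, against 10.4% and 12.1% of all genes; intron median -0.69) and 18 and 24 over all libraries (8.87% and 11.8%, against 6.95% and 6.06%; outside median 0.29). Native over crosslinked they gave 21 higher and 2 lower in WT (all genes 2.67% and 2.76%) and 21 and 1 in FLAG (5.69% and 3.67%). A pseudocount of 1, a mean of at least 10 (which left at most 2 pseudogenes) and the replicate block each gave 0 higher over all libraries, 0 in WT and 0 in FLAG between protocols, and the replicate block within genotype, added after seeing the data, gave 0 and 0 between protocols as well, and as a random block 0 over all libraries. Of all genes the pseudocount of 1 called 0.239%, 0.00629% and 0.145% higher over all libraries, in WT and in FLAG, the mean of at least 10 called 0.187%, 0% and 0.129%, the replicate block 0.0881%, 0% and 0.0629%, the block within genotype 0.0189% in WT and 0.0252% in FLAG, and the random block 0.044%. The fit of 4 groups gave 0 over all libraries (all genes 0.0503%), and no trend gave 5 between protocols in FLAG (2.46%, all genes 0.302%). Without FLAG native replicates 1 and 3, which leaves 1 FLAG native library, assumed to vary like the other groups, the native medians were 0.10 outside genes and -0.023 in introns, with 0 higher over all libraries (all genes 0.0503%), 0 between protocols in FLAG (all genes 0%) and 4 between protocols in WT (1.97%, all genes 0.472%).

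Leaving out 1 library gave 0 to 13 higher and 0 to 20 lower native (intron median from -0.67 to -0.25), 0 to 9 higher over all libraries, 0 to 8 higher between protocols in WT, and 0 to 22 higher and 0 to 5 lower in FLAG. The upper end of each count came without FLAG native replicate 2, where 9.12% and 10.8% of all genes were called native, 3.25% higher over all libraries, 0.805% higher between protocols in WT, and 9.08% and 7.57% in FLAG. The median of pseudogene minus parent, 0.17 by name, was -0.19 with parents by sequence and 0.55 for the 7 pairs outside coding gene bodies.

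Same-numbered FLAG and WT libraries deviated in opposite directions (r from -0.43 to -0.15), so the numbers do not pair FLAG with WT, whereas crosslinked and native libraries of 1 genotype and number deviated together. A crossed pairing, chosen after seeing the data, gave in the crosslinked libraries 0 higher and 0 lower. The depth of each library is unknown, so low levels carry an error that could not be computed.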
